A study of Mus musculus with 8 samples.

Results

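The Gimap genes encode GTPases of immunity-associated proteins, and 8 of them (Gimap1, Gimap3, Gimap4, Gimap5, Gimap6, Gimap7, Gimap8 and Gimap9) were followed here in CD8+ T cells from mouse spleen. Every probe set of the array annotated to 1 of these genes alone was taken, which gave 11 of the 45101 probe sets and 8 of the 18193 genes with a symbol of their own. There were 2 probe sets each for Gimap4, Gimap6 and Gimap7 and 1 for each of the other genes, and no Gimap probe set was annotated to several genes. All 11 passed the filter on dim values, which kept 27348 probe sets. The study asked how the transcription factor ELF4 controls CD8+ T cell proliferation. It had 4 groups of 2 arrays each, which were activated Elf4-/- (KO), activated wild-type (WT), naive KO and naive WT cells. WT mice were C57BL/6, and the labels give no background strain, allele design, age or sex for the KO mice. Activated cells had spent 3.5 days on plates coated with anti-CD3, with anti-CD28, in RPMI with 10% FBS and 5% T-stim, whereas cells called naive had been left untreated. Nothing in the labels shows whether the 2 replicates of a group were different mice, pools or dishes. The p-values below therefore cover the variation of these arrays alone, and that variation may be technical.

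GIMAP proteins are small GTPases related to the septins, made mostly in lymphocytes and anchored or recruited to the membranes of organelles such as lysosomes, the endoplasmic reticulum and lipid droplets. Their genes lie side by side in a cluster that is shared by mammals. They are best known for the survival of resting T cells: rats and mice that lack functional Gimap5 lose peripheral T cells, and mice without Gimap1 in their lymphocytes lose mature T and B cells.

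In the RefSeq annotation of GRCm38.p6 the 8 genes occupied 123.666 kb of chromosome 6, between positions 48647186 and 48770851. Their order was Gimap8, Gimap9, Gimap4, Gimap6, Gimap7, Gimap1, Gimap5 and Gimap3, with no other protein-coding gene between them. Gimap8 ran from 48647186 to 48660875, Gimap6 from 48701583 to 48708244, Gimap7 from 48718621 to 48724636, Gimap5 from 48746197 to 48754200 and Gimap3 from 48764464 to 48770851. Positions of the probe sets within exons, introns or UTRs were not analysed here.

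Promoters of all 8 genes, each of 300 bases from 250 before to 50 after the annotated start, were in the RefSeq table of GRCm38.p6. The letters GGAAGT hold GGAA, the core that ETS factors such as ELF4 bind. GGAAGT was searched on both strands together with TGTTTAC for FOXO factors, TGTGGT for RUNX factors and CCCACCC for KLF factors. The promoters of 3 genes are shown because Gimap6 had the steepest fall on activation, Gimap7 a shallow one and Gimap5 held GGAAGT at 2 places. Gimap9, not shown, also held it at 2 places. Capitals mark GGAAGT. Gimap6 lies on the minus strand at chr6:48708195-48708494, Gimap5 on the plus strand at chr6:48745947-48746246 and Gimap7 on the plus strand at chr6:48718371-48718670, and each is written 5′ to 3′ along its own strand.
Gimap6: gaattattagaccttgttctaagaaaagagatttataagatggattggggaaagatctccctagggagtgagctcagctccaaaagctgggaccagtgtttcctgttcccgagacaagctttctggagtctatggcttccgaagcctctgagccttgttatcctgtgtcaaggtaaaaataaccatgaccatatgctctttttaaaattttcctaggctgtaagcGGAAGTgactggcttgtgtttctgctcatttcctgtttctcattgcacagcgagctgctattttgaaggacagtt
Gimap5: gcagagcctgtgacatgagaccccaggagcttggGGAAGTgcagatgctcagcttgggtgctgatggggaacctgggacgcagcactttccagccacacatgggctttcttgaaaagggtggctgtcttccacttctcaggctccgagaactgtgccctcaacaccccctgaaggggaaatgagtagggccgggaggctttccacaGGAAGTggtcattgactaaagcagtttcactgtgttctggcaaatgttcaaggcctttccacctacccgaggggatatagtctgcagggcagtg
Gimap7: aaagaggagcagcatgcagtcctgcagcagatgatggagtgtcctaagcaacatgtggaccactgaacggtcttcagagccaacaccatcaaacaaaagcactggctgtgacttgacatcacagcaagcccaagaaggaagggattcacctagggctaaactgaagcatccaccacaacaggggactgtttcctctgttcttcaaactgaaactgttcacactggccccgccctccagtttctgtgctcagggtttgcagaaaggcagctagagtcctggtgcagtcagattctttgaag
GGAAGT lay 25 bases upstream of the start of Gimap6 and 216 and 44 bases upstream of the start of Gimap5. It lay downstream of the start in the other promoters that held it, by 1 base in Gimap1 and by 5 and 25 bases in Gimap9. It was found in the promoters of 4 of the 8 genes (Gimap1, Gimap5, Gimap6 and Gimap9), against 23.8% of all 32851 promoters in the table. TGTGGT was in those of 3 genes (Gimap1, Gimap4 and Gimap7; 16.8% of all promoters), CCCACCC in those of 2 (Gimap3 and Gimap4; 17.5%) and TGTTTAC in that of Gimap3 (3.65%). These matches describe letters in the window and show no binding.

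Elf4 itself was dim on all arrays. Its brighter probe set read 76.2 and 80.6 in activated KO, 83.6 and 134 in activated WT, 165 and 192 in naive KO and 115.5 and 198.51 in naive WT cells. The dimmer Elf4 probe set read 1.92 and 26.1 in activated KO against 112 and 58.5 in activated WT cells, and 77.6 and 58.2 in naive KO against 32.4 and 9.37 in naive WT cells. Both probe sets were thus lower on every activated KO array than on either activated WT array, while in naive cells the brighter overlapped and the dimmer was higher in KO cells. The place of the probes relative to the deletion is unknown here, and genotype rests on the labels. Array medians lay between 63.9 and 86.0 intensity units. The states differed in more than activation. The Actb 3'/5' ratio, a sign of RNA integrity, was 5.90 to 11.1 on activated and 1.96 to 2.50 on naive arrays. Xist, made by female cells, read 7703 to 10011 on activated and 60.3 to 172 on naive arrays, and the Y-linked Eif2s3y read 2.93 to 44.0 on activated and 2537 to 5146 on naive arrays. The array labels also follow another naming pattern in each state. Activation, the sex of the mice, RNA integrity and the array series therefore cannot be told apart here. Markers of CD8 T cells were bright throughout, with Cd8a at 4342 ± 76.8 in activated KO, 5855 ± 614 in activated WT, 14569 ± 465 in naive KO and 16787 ± 514 in naive WT cells (SD, n = 2 arrays each).

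The first comparison asked what activation did to the Gimap genes in each genotype. All 8 genes fell in both genotypes by their brightest probe set, and on 10 of the 11 probe sets all 4 activated arrays lay below all 4 naive arrays, as they did for 26.9% of all probe sets tested. By limma with Benjamini-Hochberg adjustment over all probe sets, 10 of 11 were lower and 0 higher in activated than in naive KO cells. In WT cells 10 of 11 were lower and 1 was higher. Of all probe sets, 23.5% were called lower in KO and 21.8% in WT cells, and 18.2% were called higher in KO and 17.4% in WT cells. The median log2 difference of the 11 probe sets was −1.64 in KO and −1.55 in WT cells, beside −0.16 in KO and −0.16 in WT cells over all probe sets. Centring each array on its median brought the median over all probe sets to −0.04 in KO and 0.04 in WT cells. Relative to all probe sets, the Gimap median was −1.48 in KO and −1.39 in WT cells with and without centring, and −1.74 in KO and −1.52 in WT cells after quantile normalization. With the Actb 3'/5' ratio as a covariate 0 of the 11 were called in either genotype, with a median log2 difference of −1.23 in KO and −1.47 in WT cells. That ratio does not overlap between the states. In bulk RNA such as this, fewer cells of a type and less RNA per cell cannot be told apart.

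**Figure D1:**
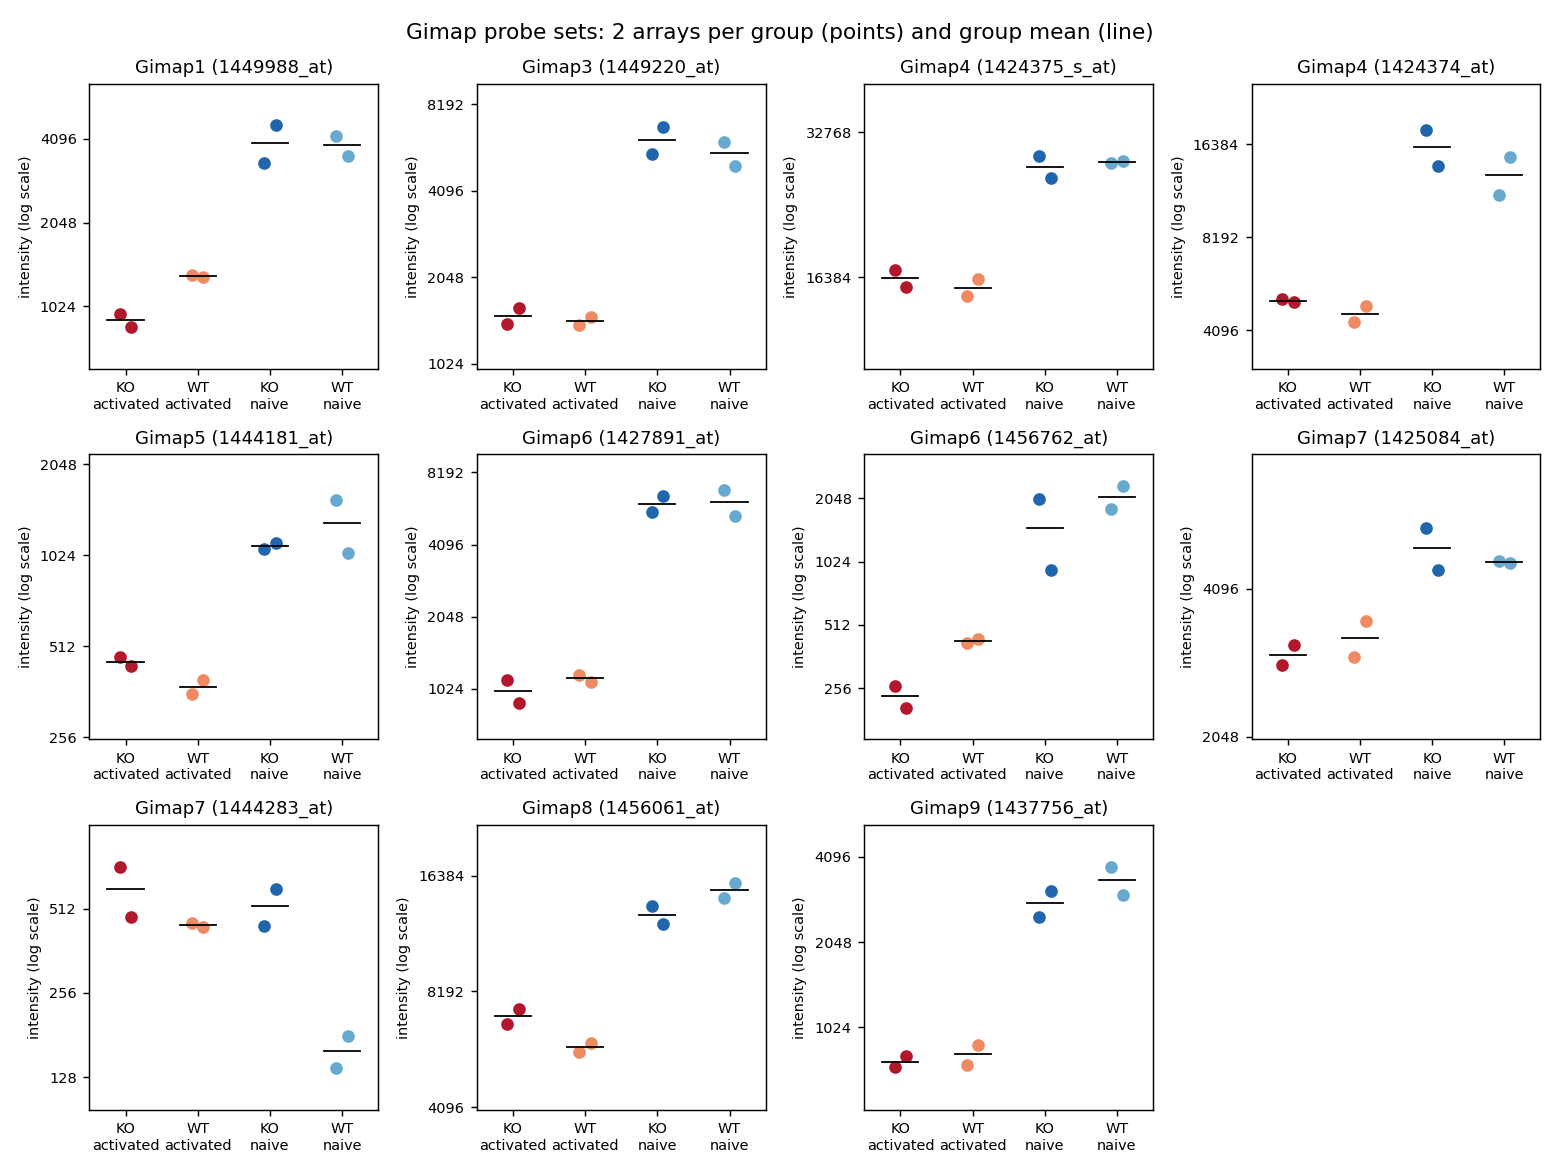
Intensity of each Gimap probe set on each of the 8 arrays (log2 axis), in activated KO, activated WT, naive KO and naive WT cells. Points are arrays and lines are group means. In 10 of the 11 panels every activated array lies below every naive array, and the dimmer Gimap7 probe set is the exception.

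Gimap6, whose product binds a protein of the autophagy machinery, had the steepest fall of the brightest probe sets. That probe set read 1111 and 892 in activated KO cells, against 5587 and 6515 in naive KO cells. It read 1175 and 1098 in activated WT cells, against 6907 and 5407 in naive WT cells. No activated array came near any naive array. The level was 6.04-fold lower in activated than in naive KO cells (log2 −2.58, SE 0.17, limma adjusted p = 1.00e-06) and 5.42-fold lower in activated than in naive WT cells (−2.41, SE 0.17, adjusted p = 1.72e-06). Among all probe sets tested, 2.94% fell further in KO and 3.06% in WT cells. The dimmer Gimap6 probe set also fell, with a log2 difference of −2.49 (SE 0.32, adjusted p = 9.56e-05) in KO and −2.22 (SE 0.32, adjusted p = 0.000237) in WT cells. It was more uneven between replicates, at 2036 and 931 in naive KO and 1813 and 2347 in naive WT cells.

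Gimap5, the member whose loss gives the lymphopenia of BB rats, read 471 and 439 in activated KO cells, against 1073 and 1121 in naive KO cells. In activated WT cells it read 356 and 395, against 1561 and 1044 in naive WT cells. The states did not overlap in either genotype, and the 2 naive WT arrays differed more than the other pairs. The fall was 2.41-fold in KO (log2 −1.24, SE 0.22, limma adjusted p = 0.000981) and 3.47-fold in WT cells (log2 −1.72, SE 0.22, adjusted p = 0.000108).

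Gimap3, a close relative of Gimap5 that acts with it in the survival of mouse T cells, gave nearly the same values in the 2 genotypes. Its level was 1406 and 1601 in activated KO cells, against 5485 and 6824.5 in naive KO cells. WT cells had 1393 and 1493 when activated, against 6063 and 5005 when naive. Activated cells thus held 4.09-fold less in KO (log2 −2.02, SE 0.16, limma adjusted p = 3.44e-06) and 3.84-fold less in WT cells (log2 −1.92, SE 0.16, adjusted p = 5.46e-06).

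Gimap1, which mature T and B cells of the mouse need to survive, was at 959 and 863 in activated KO cells and 3348 and 4578 in naive KO cells. Activated WT cells had 1322 and 1306, against 4198.5 and 3562 in naive WT cells. The 2 activated KO arrays were the lowest of the 8. The fall was 4.35-fold in KO (log2 −2.09, SE 0.18, limma adjusted p = 5.26e-06) and 2.95-fold in WT cells (log2 −1.55, SE 0.18, adjusted p = 5.14e-05).

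Gimap9 averaged 774 ± 47.8 in activated KO and 2806 ± 419 in naive KO cells (SD, n = 2 arrays each). In WT cells it averaged 821 ± 93.1 when activated and 3386 ± 528 when naive. The difference was 3.62-fold in KO (log2 −1.83, SE 0.18, limma adjusted p = 1.58e-05) and 4.12-fold in WT cells (log2 −2.02, SE 0.18, adjusted p = 8.67e-06).

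Gimap8, a long member with several GTPase domains in a row, read 6746 and 7348 in activated KO cells, against 13673 and 12247 in naive KO cells. It read 5699 and 6023 in activated WT cells, against 14296 and 15712 in naive WT cells. Its states were further apart in WT than in KO cells, with the highest arrays naive WT and the lowest activated WT. It fell 1.84-fold in KO (log2 −0.88, SE 0.12, limma adjusted p = 0.000144) and 2.56-fold in WT cells (log2 −1.35, SE 0.12, adjusted p = 6.91e-06).

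Gimap4, which hastens the death of T cells in mice, had a smaller fall by its brighter probe set, which averaged 16303 ± 909 in activated KO and 27761 ± 2041 in naive KO cells, and 15591 ± 890 in activated WT and 28400 ± 271 in naive WT cells (SD, n = 2 arrays each). It fell 1.70-fold in KO (log2 −0.77, SE 0.11, limma adjusted p = 0.000171) and 1.82-fold in WT cells (log2 −0.87, SE 0.11, adjusted p = 8.05e-05). The dimmer Gimap4 probe set gave a larger fall in each genotype, 3.14-fold in KO (log2 −1.64, adjusted p = 1.70e-05) and 2.82-fold in WT cells (log2 −1.48, adjusted p = 3.99e-05). Saturation of the brighter probe set was not tested.

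Gimap7, whose human protein hydrolyses GTP as a dimer, was the gene on which 2 probe sets disagreed. The brighter read 2861 and 3142 in activated KO cells, against 5443 and 4467.5 in naive KO cells, and 2972.5 and 3528 in activated WT cells, against 4654 and 4619 in naive WT cells. Its fall was 1.65-fold in KO (log2 −0.71, SE 0.15, limma adjusted p = 0.00265) and 1.43-fold in WT cells (log2 −0.52, SE 0.15, adjusted p = 0.0175). Of all probe sets tested, 30.9% fell further in KO and 35.9% in WT cells. The WT call of this probe set was lost when each array was centred on its median (log2 −0.33, adjusted p = 0.154) and without activated WT replicate 1 (log2 −0.39, adjusted p = 0.156). The dimmer probe set read 722 and 479 in activated KO cells, against 442 and 603 in naive KO cells, and the states overlapped (log2 difference 0.18, SE 0.27, adjusted p = 0.634). In WT cells it read 455 and 441 when activated, against 139 and 179.6 when naive, so it was higher in activated cells (log2 1.42, SE 0.27, adjusted p = 0.00188). Which transcript each Gimap7 probe set detects was not analysed here.

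**Figure D2:**
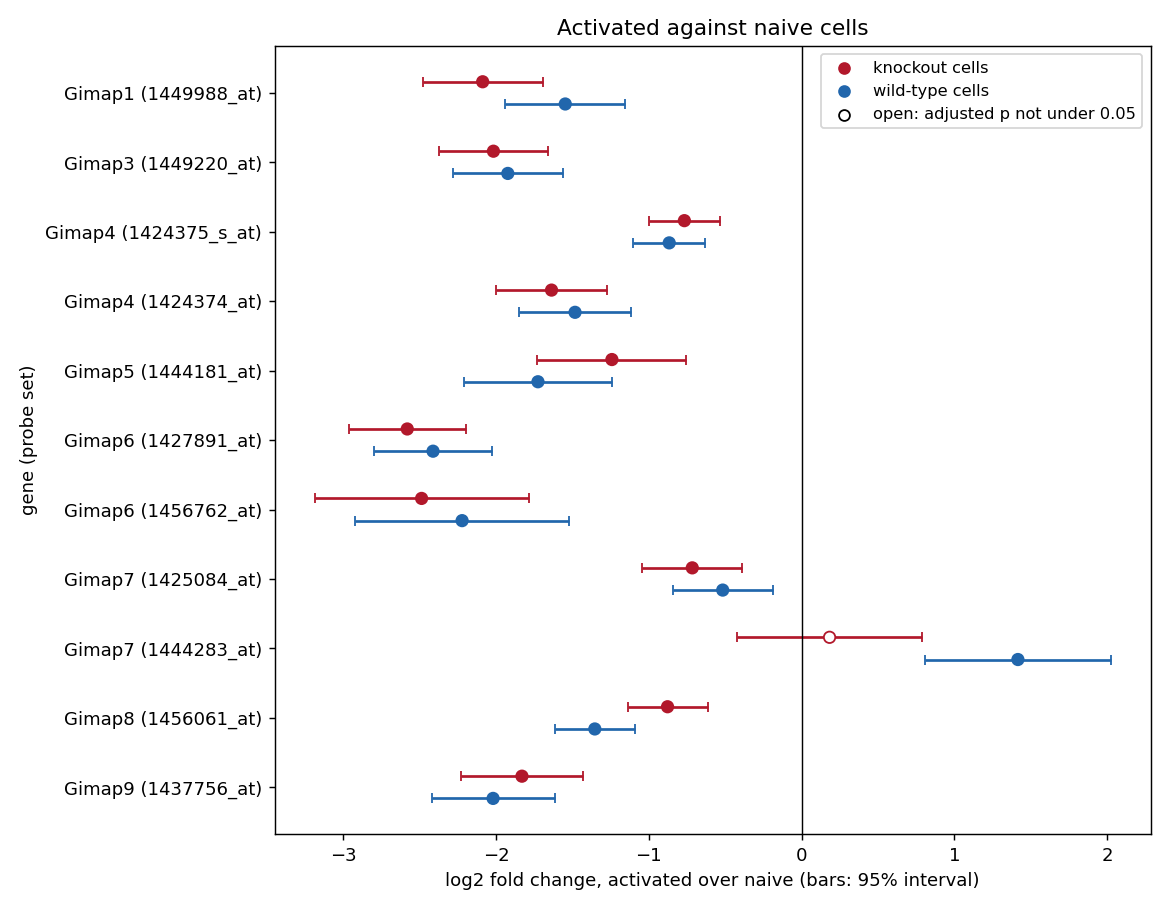
Log2 difference between activated and naive cells for each Gimap probe set, KO above WT, with 95% intervals. Filled points passed the adjusted threshold of 0.05 and open points did not. All probe sets lie left of 0 except the dimmer Gimap7 probe set, which was at 0.18 in KO and 1.42 in WT cells.

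In order of size, the falls of the brightest probe sets ran Gimap6, Gimap1, Gimap3, Gimap9, Gimap5, Gimap8, Gimap4 and Gimap7 in KO cells. In WT cells the order was Gimap6, Gimap9, Gimap3, Gimap5, Gimap1, Gimap8, Gimap4 and Gimap7. Gimap1, Gimap3 and Gimap9 are neighbours in the KO order whose differences of −2.09, −2.02 and −1.83 lay closer together than the SEs of 0.16 to 0.18 could separate. The same held in KO cells for Gimap8, Gimap4 and Gimap7, at −0.88, −0.77 and −0.71 with SEs of 0.11 to 0.15. In WT cells it held for each step from Gimap9 through Gimap3, Gimap5 and Gimap1 to Gimap8, at −2.02, −1.92, −1.72, −1.55 and −1.35 with SEs of 0.12 to 0.22. Differences between genes were not tested. Over the 8 arrays the 28 pairs of brightest probe sets correlated at 0.888 to 0.988, with a median of 0.964. These arrays share a split by state, and correlations of this size describe that split.

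Markers of T cells and of other cells moved with activation too. For comparison, 25.9% of all genes tested were lower and 21.7% higher in activated KO cells, and 23.8% were lower and 21.1% higher in activated WT cells. Of 9 measured CD8 T cell markers, 9 were lower in activated cells of each genotype, with a median log2 difference of −1.74 in KO and −1.52 in WT cells. Their summed level was 31842 to 39802 on activated and 97801 to 125730 on naive arrays. Of 8 measured B cell markers, 7 fell in each genotype, and their summed level was 5532 to 7565 on activated and 24311 to 35822 on naive arrays. B cell marker signal was thus higher on every naive array, and B cells are known to express Gimap genes too. The summed level of the 4 CD4 and regulatory T cell markers tested, of 6 listed, was 11647 to 16934 on activated and 898 to 1787 on naive arrays. Cd4 and Foxp3 were on the array but did not pass the filter on dim values, so the sum holds neither. Ctla4, which activated CD8 T cells also make, carried most of the sum (log2 difference 5.32 in KO and 4.61 in WT cells). Of the 4 markers, limma called 3 higher in KO and 2 in WT cells. Ikzf2 was higher too (log2 1.34, adjusted p = 5.96e-05 in KO, and 2.25, adjusted p = 1.60e-06 in WT cells). Zbtb7b was higher in KO cells (log2 1.07, adjusted p = 0.0269) and had 0.17 in WT cells (adjusted p = 0.729). Cd40lg had 0.00 in KO and −0.51 in WT cells (limma adjusted p = 0.997 and 0.457). Of the 9 macrophage and monocyte markers on the array 6 passed the filter, and these summed to 519 to 604 on activated and 2066 to 6146 on naive arrays. The 4 platelet markers tested summed to 3345 to 4232 on activated and 395 to 546 on naive arrays. Of these, 2 were called higher in each genotype, Pf4 (log2 5.04 in KO and 4.18 in WT cells) and Ppbp (5.25 and 3.71). Itga2b and Gp1bb were called in neither. Granulocyte markers had a median log2 difference of −4.51 in KO and −0.57 in WT cells, and NK cell markers of −2.04 in KO and −1.36 in WT cells. The part of these shifts in the Gimap values was not tested.

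Genes beside the cluster were examined as the closest chromosomal comparison. Of the 8 protein-coding genes on each side, 12 of 16 were on the array and 9 were tested. In activated KO cells 1 was higher and 1 lower than in naive KO cells, and in activated WT cells 1 was higher and 2 lower than in naive WT cells. At the gene level, 21.7% of all genes tested were higher and 25.9% lower in KO cells, and 21.1% were higher and 23.8% lower in WT cells. Repin1, a zinc finger gene before the cluster, rose to 909 in activated KO cells, against 116 in naive KO cells (log2 2.82, limma adjusted p = 9.83e-06), and to 640 in activated WT cells, against 52.8 in naive WT cells (log2 3.25, adjusted p = 3.88e-06). Lrrc61, also before the cluster, fell in both (log2 −1.10, adjusted p = 0.00479 in KO, and −0.998, adjusted p = 0.00885 in WT cells). Zfp775, the nearest gene before Gimap8, had log2 differences of 0.00 in KO and −0.40 in WT cells (adjusted p = 0.991 and 0.240). Tmem176b, the nearest after Gimap3, had −0.69 in KO and −0.91 in WT cells (adjusted p = 0.129 and 0.0527). The WT difference of Tmem176b was larger in size than those of the brighter Gimap4 and Gimap7 probe sets, but smaller than that of the dimmer Gimap4 probe set (−1.48). No difference between neighbours and Gimap genes was tested. Zfp467, further before the cluster, was lower in activated WT cells (log2 −1.78, adjusted p = 0.00937) and had −0.18 in KO cells (adjusted p = 0.779). The other tested neighbours, Sspo, Rarres2, Tmem176a and Gpnmb, were not called in either genotype.

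**Figure D3:**
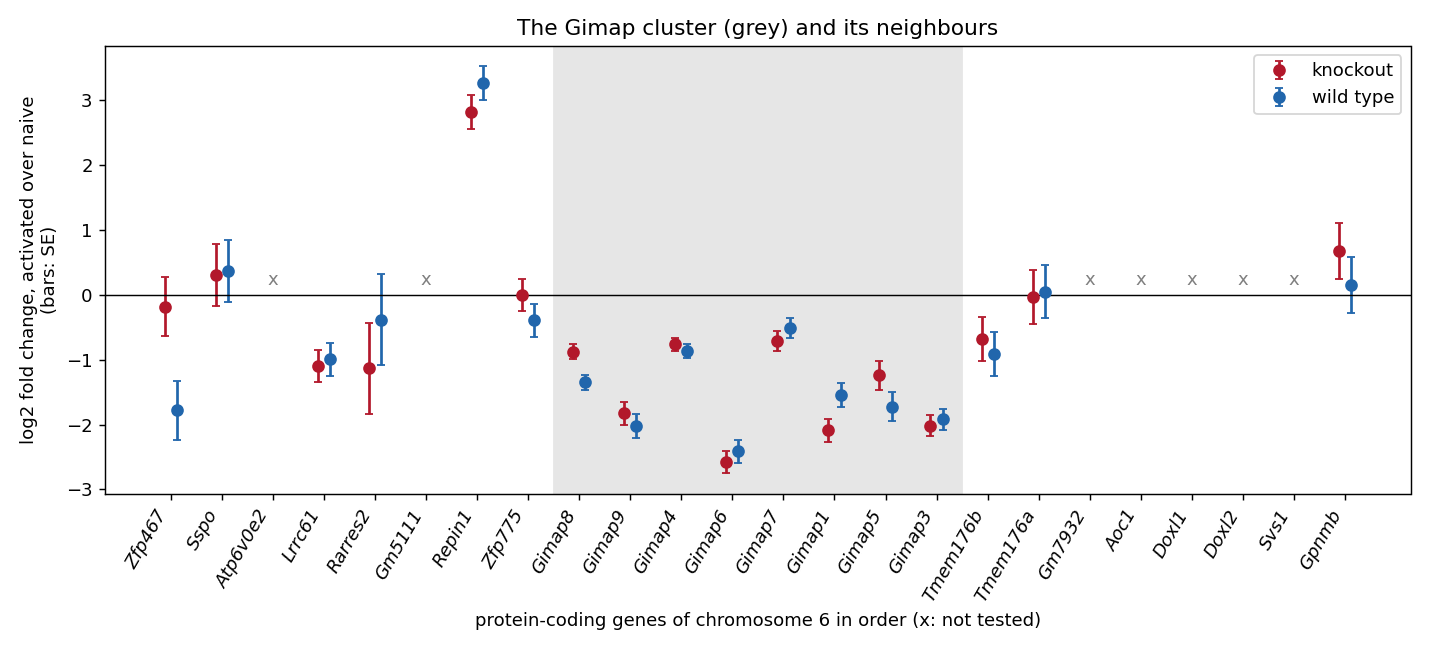
Log2 difference between activated and naive cells by gene order along chromosome 6, for the 8 Gimap genes and 8 protein-coding genes on each side, with SE. Crosses mark genes that were not tested. The 8 Gimap genes all lie below 0 in both genotypes, and Repin1 stands above them at 2.82 in KO and 3.25 in WT cells.

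Other genes of T cell survival moved in both directions, as all genes tested did. Of all genes tested, 21.7% were higher and 25.9% lower in activated KO cells, and 21.1% were higher and 23.8% lower in activated WT cells. The survival list held partners of the BCL2 family and the interleukin 7 pathway, and 16 of its 19 genes were tested. Activated KO cells had 2 higher and 5 lower than naive KO cells (median log2 −0.35), and activated WT cells had 2 higher and 6 lower than naive WT cells (median −0.42), beside medians of −0.11 and −0.12 over all genes. Il7r, the interleukin 7 receptor that keeps resting T cells alive, fell to 7204 ± 207 in activated KO cells, against 24458 ± 341 in naive KO cells (log2 −1.76, limma adjusted p = 5.46e-07). In WT cells Il7r fell to 5729 ± 472, against 22106 ± 201 (log2 −1.95, adjusted p = 3.07e-07). Jak1, its kinase, had log2 differences of −2.53 in KO and −2.34 in WT cells (adjusted p = 1.67e-06 and 3.15e-06). Bcl2l1, which encodes the survival protein BCL-XL, rose in activated cells (log2 2.48, adjusted p = 1.38e-05 in KO, and 2.15, adjusted p = 4.28e-05 in WT cells).

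The quiescence and homing genes of resting T cells mostly fell. Of 17 tested genes, 13 were lower and 1 higher in activated than in naive KO cells. In activated WT cells 13 were lower and 0 higher than in naive WT cells. Of all genes tested, 25.9% were lower and 21.7% higher in KO cells, and 23.8% were lower and 21.1% higher in WT cells. The median log2 difference of the 17 was −1.76 in KO and −1.87 in WT cells, beside −0.11 and −0.12 over all genes. Klf2, which keeps T cells quiescent and directs their traffic, fell with log2 differences of −6.88 in KO and −5.67 in WT cells (limma adjusted p = 6.61e-09 and 2.30e-08). S1pr1, the receptor for leaving lymphoid organs, fell too, with −3.43 in KO and −3.74 in WT cells (adjusted p = 3.10e-07 and 1.96e-07).

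The other comparison asked what loss of Elf4 did to the Gimap genes. In activated cells none of the 11 probe sets differed between KO and WT by limma at an adjusted p of 0.05, and 3 had an unadjusted p under 0.05. Of all probe sets, 0.216% were called in this comparison. Array values did not overlap for 4 probe sets that were higher and 2 that were lower in KO cells, beside 22.5% of all probe sets higher and 24.5% lower. By the brightest probe set of each gene, the log2 differences lay between −0.52 and 0.27.

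Gimap1 had the largest of these, at 959 and 863 in activated KO cells against 1322 and 1306 in activated WT cells. Its log2 difference was −0.52 (95% interval −0.92 to −0.13, unadjusted p = 0.0139, limma adjusted p = 0.310), lower on 2 of 2 KO arrays. Gimap8 was at 6746 and 7348 in activated KO cells against 5699 and 6023 in activated WT cells (log2 0.26, interval 0.00 to 0.53, adjusted p = 0.469). The dimmer Gimap6 probe set was at 262 and 207 in activated KO cells against 420 and 440 in activated WT cells (log2 −0.84, interval −1.54 to −0.14, adjusted p = 0.373). The brighter Gimap6 probe set differed by −0.19 (interval −0.57 to 0.20), so the probe sets of this gene gave unequal sizes. For the other genes the intervals reached from −0.30 to 0.42 for Gimap3, −0.17 to 0.30 for Gimap4, −0.22 to 0.75 for Gimap5, −0.44 to 0.22 for Gimap7 and −0.48 to 0.32 for Gimap9, by their brightest probe sets. The Actb 3'/5' ratio was 7.44 and 11.1 in activated KO against 5.98 and 5.90 in activated WT cells, and its part in these differences was not tested. The fit with this ratio as a covariate called 0, as the main fit did, so that count cannot show its part. In that fit the brighter Gimap6 probe set was at 0.233 and Gimap3 at −0.001, each with its sign changed.

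In naive cells 1 of the 11 probe sets was called higher and 0 lower in KO than in WT cells, beside 0.314% of all probe sets higher and 0.249% lower. It was the dimmer Gimap7 probe set, at 442 and 603 in naive KO cells against 139 and 179.6 in naive WT cells. The difference was 3.28-fold (log2 1.61, 95% interval 1.01 to 2.22, limma adjusted p = 0.0321), and both KO arrays lay above both WT arrays. The brighter Gimap7 probe set differed by 0.09 (interval −0.24 to 0.42, adjusted p = 0.877). The call was lost in 11 of 22 alternatives, whose adjusted p ranged from 0.0212 to 0.364, among them a fit without naive KO replicate 2 (log2 1.40, adjusted p = 0.191) or without naive WT replicate 1 (log2 1.45, adjusted p = 0.0781). It was also lost without activated KO replicate 1 or 2 (adjusted p = 0.0720 and 0.0703) and without activated WT replicate 1 or 2 (adjusted p = 0.101 each). The rise of this probe set on activation of WT cells rests on the same 2 naive WT arrays.

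Summed markers of some other cells were also higher in naive KO than in naive WT preparations. Of 8 measured granulocyte markers, 4 were called higher in naive KO than in naive WT cells, beside 0.468% of all genes tested. The summed level of the 8 was 4647 and 19478 in naive KO cells against 405 and 688 in naive WT cells. The summed NK cell markers were at 1523 and 2151 in naive KO cells against 407 and 822 in naive WT cells, and 1 of the 4 tested was called higher. The macrophage markers were at 3750 and 6146 in naive KO cells against 2066 and 2518 in naive WT cells, and 0 of the 6 tested were called. The summed B cell markers overlapped, at 24311 and 35822 in naive KO cells against 32454 and 29961 in naive WT cells, and 0 of the 8 tested were called. The part of these other cells in the Gimap7 difference was not tested.

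**Figure D4:**
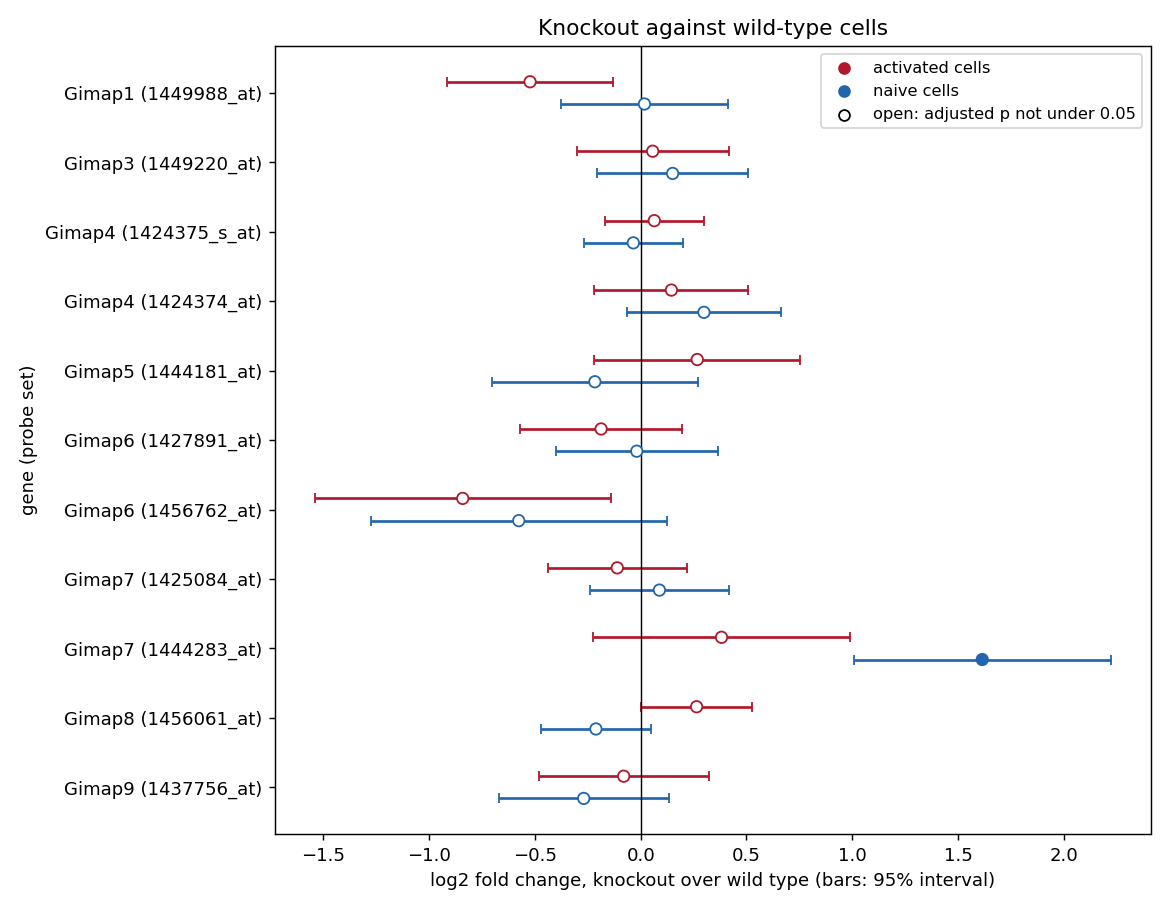
Log2 difference between KO and WT cells for each Gimap probe set, activated and naive, with 95% intervals. Filled points passed the adjusted threshold of 0.05 and open points did not. The dimmer Gimap7 probe set in naive cells, at 1.61, is the filled point, and the other points lie between −0.84 and 0.38.

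The remaining members of naive cells had log2 differences between KO and WT of −0.27 to 0.15 by their brightest probe sets. Gimap3 was at 0.15 (interval −0.21 to 0.51), Gimap1 at 0.02 (−0.38 to 0.41) and Gimap6 at −0.02 (−0.40 to 0.36), a sign that turned with quantile normalization or centring. The dimmer probe sets of Gimap4 and Gimap6 were at 0.30 and −0.58 (adjusted p = 0.522 each). Gimap8 was lower on both naive KO arrays, 13673 and 12247 against 14296 and 15712 in naive WT cells, by −0.21 (interval −0.47 to 0.05, limma adjusted p = 0.529). Gimap5 and Gimap9 overlapped between genotypes, at −0.22 (adjusted p = 0.771) and −0.27 (adjusted p = 0.618). Non-overlapping arrays, 1 probe set higher and 1 lower, compare with 18.4% of all probe sets higher and 19.8% lower.

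Whether the genotype effect differed between the states was tested as an interaction. No Gimap probe set passed by limma, 2 had an unadjusted p under 0.05, and 0.0585% of all probe sets were called. Gimap8, higher in activated and lower in naive KO cells than in WT cells of the same state, had a difference of 0.48 on the log2 scale (interval 0.11 to 0.85, unadjusted p = 0.0165, adjusted p = 0.370). The dimmer Gimap7 probe set had −1.23 (interval −2.09 to −0.37, adjusted p = 0.311), and Gimap1 had −0.54 (interval −1.10 to 0.02, adjusted p = 0.527).

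Genes of the survival list had 0 calls between KO and WT cells by limma, with 3 at an unadjusted p under 0.05 in activated and 2 in naive cells. Of all genes, 0.125% were called higher and 0.164% lower in activated KO cells, and 0.468% higher and 0.359% lower in naive KO cells, so 0 of 16 lies near the background. Of the 17 quiescence and homing genes tested, 1 was lower, 0 higher and 16 not called in activated KO against activated WT cells (median log2 0.04 below 0, at −0.04). In naive KO against naive WT cells 1 was lower, 0 higher and 16 not called (median 0.04). Klf2 was lower in activated KO cells, at 114 ± 6.63 against 263 ± 30.0 in activated WT cells (log2 −1.10, limma adjusted p = 0.0464). Klf4, a cell cycle inhibitor known as an ELF4 target in CD8+ T cells, was lower in naive KO cells, at 419 ± 165 against 2378 ± 730 in naive WT cells (log2 −2.48, adjusted p = 0.0119; SD, n = 2 arrays each).

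The genes most like the Gimap family were ranked by Pearson correlation with the mean of the members' standardised log2 values over the 8 arrays, among 12815 genes. Slc16a5 (0.999), Ndufb3 (0.9988), Cdk19 (0.9982), Tdrp (0.9982), Pink1 (0.9982), Smpdl3a (0.9981), Sgk1 (0.9979) and Gabrr2 (0.9976) came highest. A correlation above 0.99 was reached by 193 genes, or 1.51%, and one above 0.9 by 17.5%, so many genes follow the split between states. Pink1, a kinase of mitochondrial quality control, was at 320 and 329 in activated KO and 262 and 343 in activated WT cells, against 3206 and 2510 in naive KO and 3308 and 2660 in naive WT cells. Sgk1, a kinase downstream of phosphoinositide signalling, had a log2 difference on activation of −4.87 in KO and −4.99 in WT cells. Ndufb3, a subunit of respiratory complex I, had −1.08 in KO and −1.08 in WT cells, so likeness in pattern did not mean likeness in size.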

How the data were processed

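Per the labels, total RNA of CD8+ T cells from spleen was hybridised to Affymetrix arrays, 1 sample an array. The authors deposited 1 linear intensity per probe set and array, made with MAS5 per the submitters' processing notes, of a version not named there. Every array had a 2% trimmed mean of 500, so the intensity values had been scaled by the authors before deposit. With 2 arrays in each group, precision is limited by array number. Of 45037 probe sets that were no manufacturer's control, 34945 had 1 gene symbol, 932 several and 9160 none, and 34741 symbols were matched by Entrez identifier to the RefSeq gene table of GRCm38.p6. Groups and replicate numbers came from the sample titles.

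Values were analysed as log2(intensity + 16) in R 4.3.3 with limma 3.58.1, with no further scaling, so log2 differences of dim probe sets are understated. Folds are ratios of the group mean intensities without the added 16, so a fold and its log2 difference can differ slightly. Probe sets at or above the array median on at least 2 of 8 arrays were tested, 27348 in all. A model of 4 group means (lmFit, eBayes with a trend, 4 residual degrees of freedom and a prior of 6.67) gave 5 comparisons, two-sided, with Benjamini-Hochberg adjustment over all probe sets and a threshold of 0.05. Intervals are 95%. Where 1 probe set stands for a gene, it is the brightest tested over all arrays. All Gimap probe sets are named, in each list up to 4 genes per comparison with the smallest p, the tested neighbours, and the 8 genes most alike. The members, the 4 lists and the 9 marker lists were chosen with earlier results of these data known, so counts over them are descriptions. Alternatives changed the offset, filter, scaling, variance model, arrays used, weights, replicate block and a covariate for RNA integrity, and left out each array in turn. Replicate numbers were not taken as pairs. Deviations of same-numbered activated and naive arrays of a genotype correlated at −0.036 in KO and 0.069 in WT cells. Those of same-numbered arrays of KO and WT correlated at 0.023 in activated and −0.167 in naive cells.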

Additional observations from a re-analysis of the deposited data

How the results depend on the processing

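Apart from the covariate fit below, the counts of Gimap probe sets called for activation lay between 7 and 10 in KO and between 9 and 11 in WT cells, lowest where a log2 difference of at least 1 was also required. The count was 0 in 23 of 23 alternatives for KO against WT in activated cells and in 22 of 22 for the difference between states, and 1 in 12 of 23 for KO against WT in naive cells. With the log2 Actb 3'/5' ratio as a covariate, 0 Gimap probe sets were called for activation in KO and 0 in WT cells, and 0 and 484 probe sets were called in all. The Gimap median was then −1.23 in KO and −1.47 in WT cells on the log2 scale, and the ratio does not overlap between the states. The naive genotype count was 0 without a variance trend, with the replicate block, with the Actb ratio, with array weights and in a fit of the 4 arrays alone. The dimmer Gimap7 probe set then had adjusted p-values of 0.164, 0.0589, 0.169, 0.0814 and 0.364. The pairing by replicate number changed no other Gimap call. Leaving out 1 array gave 10 to 10 calls for activation in KO, 10 to 11 in WT, 0 to 0 for KO against WT in activated and 0 to 1 in naive cells. The fall of the brighter Gimap7 probe set in WT cells was not called without a trend (adjusted p = 0.0912) or without naive WT replicate 1 (0.0507). A replicate block with the numbers crossed in KO cells was added after the data were seen, and it gave 1 Gimap call for KO against WT in naive cells, 0 in activated cells, and 10 and 11 calls for activation in KO and WT cells.

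Uncalled genotype differences changed sign as follows, in log2. Centring on the median gave 0.07 for the brighter Gimap4 and 0.086 for the brighter Gimap6 probe set in naive cells. Quantile normalization gave 0.208 and 0.029 for these in naive cells and −0.047 for Gimap4 in activated cells. The Actb covariate gave −0.070 for Gimap1 in naive cells, and 0.233 for the brighter Gimap6 and −0.001 for Gimap3 in activated cells. Leaving out 1 array gave, in naive cells, −0.207 to 0.243 for Gimap1, −0.006 to 0.308 for Gimap3, −0.11 to 0.04 for the brighter Gimap4, −0.503 to 0.07 for Gimap5, −0.195 to 0.158 for the brighter Gimap6 and −0.053 to 0.231 for the brighter Gimap7 probe set. In activated cells it gave −0.036 to 0.15 for Gimap3, −0.234 to 0.012 for the brighter Gimap7 probe set and −0.194 to 0.033 for Gimap9. The dimmer Gimap7 probe set on activation of KO cells, also uncalled, ran from −0.104 to 0.472. The cause of these changes was not tested. The dimmer Gimap7 probe set read 139 and 179.6 in naive WT cells, on arrays with medians of 73.4 and 86.0, so those levels are dim.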

Other observations

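Interferon-inducible GTPases, another family of GTPases of immunity, were set beside the Gimap genes. Of 10 tested genes, 8 were lower and 0 higher in activated than in naive KO cells (median log2 −1.54), while 3 were lower and 2 higher in activated than in naive WT cells (median −0.29). Of all genes tested, 25.9% were lower and 21.7% higher in activated KO cells, and 23.8% were lower and 21.1% higher in activated WT cells. Whether the effect of genotype depended on the state was tested as an interaction, which limma called for 0 of the 10. Of all genes tested, 0.039% were called higher and 0.039% lower. The median of the 10 was −1.17 on the log2 scale, beside −0.03 over all genes. An unadjusted p under 0.05 was found for 9 of the 10, and the share of all genes at that level was not counted. Mx1, an antiviral dynamin-like GTPase, was at 29.7 ± 4.08 in activated KO and 581 ± 28.5 in naive KO cells, and at 53.6 ± 5.74 in activated WT and 382 ± 80.1 in naive WT cells (SD, n = 2 arrays each). Igtp, which guards against vacuolar parasites, rose in activated WT cells, at 12064 ± 605 against 7069 ± 1065 in naive WT cells (log2 0.78, limma adjusted p = 0.00132).

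Between genotypes, naive KO cells had more Igtp, at 12610 ± 1892 against 7069 ± 1065 in naive WT cells (log2 0.83, limma adjusted p = 0.0332), and more Irgm2, at 2309 ± 109 against 1228 ± 213 (log2 0.91, adjusted p = 0.0487). Gbp2, a guanylate-binding protein, was lower in activated KO cells, at 2150 ± 52.0 against 4662 ± 748 in activated WT cells (log2 −1.10, adjusted p = 0.0254). Of the 10 genes, 2 were called higher in naive KO and 1 lower in activated KO than in WT cells of the same state, beside 0.468% of genes higher in naive and 0.164% lower in activated cells.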
